A study of Mus musculus with 2 samples.

Results

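The cells described here were the 1500 cells of the AICAR+LIF d8 population that scored highest for 8 genes of simple epithelia, out of 9627 d8 cells and 17720 cells in all. The score of a cell was the mean, over Krt8, Krt18, Sfn, Fgfbp1, Cldn6, Card10, F2rl1 and Slc5a5, of the natural log of 1 plus the reads per 10000 reads of that cell. The cells were thus chosen by the measured values of these 8 genes, whose levels are given as a description, and the 8127 other d8 cells served as the comparison. The d8 culture was started from Oct4GIP, a line of primed mouse epiblast stem cells (primed mEpiSCs, strain 129/Ola). In this line, regulatory sequence of Oct4 drives a GFP and puromycin resistance cassette. Oct4GIP cells are kept in FGF2 and Activin A, on mouse embryonic fibroblasts per the labels or on fibronectin per the study's methods. They were then treated for 8 days with AICAR, an activator of the energy sensor AMPK, together with the cytokine LIF. Per the study's methods, this treatment was done on mouse embryonic fibroblast feeders in a medium that contained serum. Feeder cells and cells of the treated line were not told apart among the d8 cells. The other tagged populations were naive mESCs of the Rex1-GFP line, untreated primed mEpiSCs, AICAR+LIF d16 cells, and d16+10p cells, which are d16 cells grown for a further 10 passages in 2i and LIF. Each population was 1 culture under 1 tag in 1 pooled library. There is thus no replicate, no test was made, and every interval below is a 95% interval for counting error only, in which reads of the same amplified molecule count as independent.

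Simple epithelia are single sheets of polarized cells. Keratins 8 and 18 pair to form their intermediate filaments, E-cadherin (Cdh1) holds neighbouring cells together at adherens junctions, claudins and cingulin seal the sheet at tight junctions, and desmosomes tie the keratin filaments of neighbouring cells together. The epiblast is itself an epithelium, and its cells lose E-cadherin and gain vimentin when they become mesenchymal, under repressors such as those of the Snail and Zeb families, which bind E-boxes. The d8 time point lies within the conversion of primed cells towards the naive state, and the question was what else the keratin-rich cells of that time point expressed.

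The members held a median of 19497 reads and 4773 genes per cell, against 14835 reads and 4000 genes in the other d8 cells, and mitochondrial genes took 6.95% and 6.41% of the reads. No cell barcode was shared between tags. The members' scores ran from 1.14 to 2.597, and no gap separated them from the rest. The lowest member scored 1.1395 and the highest cell outside 1.1386, with 166 members less than 0.05 above the limit and 164 cells less than 0.05 below it. The members are therefore the upper end of a continuous range. They carried a read of a median of 6 of the 8 score genes, and 202 of the 1500 carried all 8, whereas the other d8 cells carried a median of 3.

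**Figure D1:**
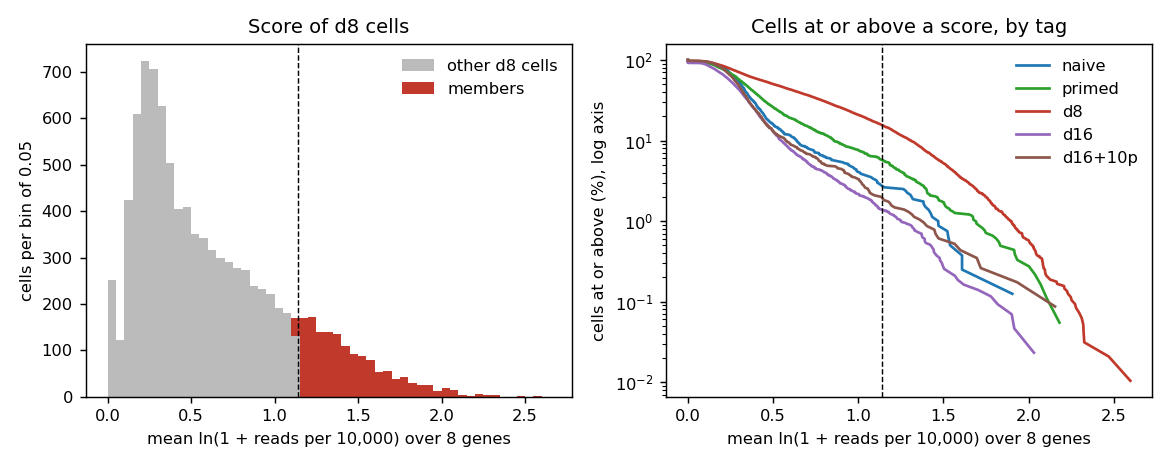
Left, histogram of the score (mean natural log of 1 plus reads per 10000, over 8 genes) of the 9627 d8 cells, with the 1500 members in red and the lowest member score as a dashed line; right, share of the cells of each tag (%, log axis) at or above each score. The d8 scores fall off smoothly through the limit at 1.14, and the d8 curve lies above those of the other 4 tags there.

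The level of a gene is given as CPM, its reads summed over a group of cells and scaled by all reads of that group. Krt8 stood at 3922 CPM in the members and 542 CPM in the other d8 cells, and Krt18, its partner, at 4333 and 540 CPM. Sfn (14-3-3 sigma) stood at 435 and 51.7 CPM, Fgfbp1, a carrier that releases FGFs from the matrix, at 265 and 49.0 CPM, and Cldn6, a claudin, at 232 and 46.1 CPM. F2rl1 (the protease-activated receptor PAR2) stood at 95.1 and 19.5 CPM, Card10, a scaffold between receptors and NF-kB, at 79.1 and 15.2 CPM, and Slc5a5 (the sodium-iodide symporter) at 70.1 and 8.13 CPM. Krt8 and Krt18 were seen in nearly every member and the others in fewer. The median member carried 31.0 reads of Krt8 and 32.6 of Krt18 per 10000 but 3.04 of Sfn and 0 of Slc5a5. When every cell was thinned to 5000 reads, which left out 43 members and 712 other d8 cells, 99.7% of the members still had a read of Krt8, 69.0% of Sfn and 19.8% of Slc5a5. In the same thinned data Slc5a5 was seen in 3.52% of the other d8 cells.

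Epithelial genes that the score did not contain were then read in the same cells. This describes the chosen cells and is not an independent check of the epithelial label. The markers were Epcam, Cdh1, Cldn3, Cldn4, Cldn7, Krt7, Krt19, Dsp, Grhl2 and Esrp1. All 10 were higher in the members than in the other d8 cells, 3 of them under 20 CPM in both groups. Of the 7 that reached 20 CPM in either group, 6 were at least 2-fold higher, against 1.23% of the 7619 genes compared below. The exception among the 7 was Krt7, at 23.5 and 18.3 CPM. Of the 2 keratins among these markers, Krt19 was thus at least 2-fold higher and Krt7 was not. Vim, the mesenchymal filament gene, was nevertheless at 3676 CPM in the members against 4902 CPM in the other d8 cells. After thinning, 99.0% of the members had a read of both Krt8 and Vim. Vim was not particular to the members, as before thinning 99.8% of them and 99.96% of the other d8 cells had a read of it.

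Across genes, the members differed from the other d8 cells in a small set of higher genes and a larger set of lower ones. Ratios are log2 of the members' CPM plus 1 over the other cells' CPM plus 1. Among 7619 genes that reached 20 CPM in either group and 100 reads in both together, with score genes and mitochondrial genes left out, 94 were at least 2-fold higher in the members, which is 1.23%, and 371 were at least 2-fold lower, which is 4.87%. The median ratio of these genes was 0.06. Of the 94 higher genes, 23 belonged to the gene lists described below, and of the 371 lower genes, 29 did. The share of all 7619 genes on the lists is not given, so these counts have no background beside them. All these ratios come from the cells that the score chose, so they describe those cells and are not independent of the rule.

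**Figure D2:**
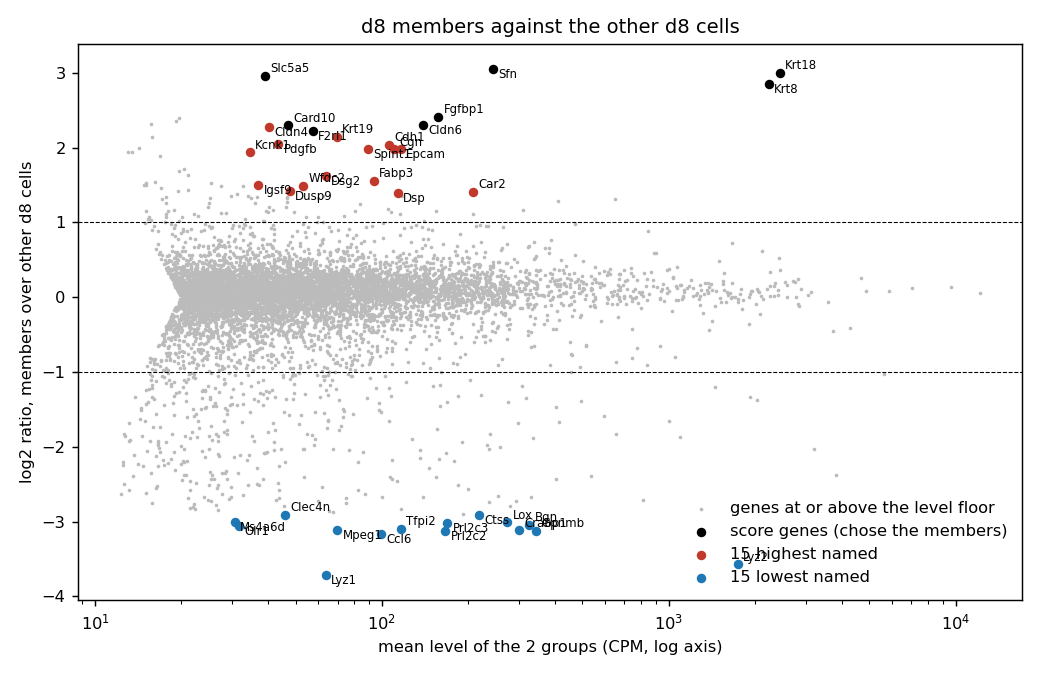
Each point is a gene, with its mean level in the members and the other d8 cells (CPM, log axis) against the log2 ratio of members over other d8 cells; dashed lines mark 2-fold. Red marks the 15 highest genes, from Dsp at 1.40 to Cldn4 at 2.27, blue the 15 lowest, from Ctss at -2.90 to Lyz1 at -3.71, and black the 8 genes that chose the members.

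The 15 genes with the largest ratios, among those at 50 CPM or more in either group, were led by components of epithelial junctions and filaments. Cldn4, a claudin of simple epithelia, stood at 67.5 CPM in the members and 13.2 CPM in the other d8 cells, a ratio of 2.27 (interval 2.19 to 2.36). Krt19, a keratin of simple and ductal epithelia, stood at 114 and 24.97 CPM (ratio 2.15, interval 2.08 to 2.21). Cdh1 (E-cadherin) stood at 171 and 40.8 CPM (ratio 2.04, interval 1.99 to 2.09). Epcam, an epithelial adhesion molecule, followed at 186 and 46.4 CPM, and Cgn (cingulin, of the tight junction plaque) at 176 and 43.9 CPM, both with a ratio of 1.98. The desmosome supplied Dsg2, a desmosomal cadherin, at 96.7 and 30.7 CPM, and Dsp (desmoplakin), which anchors keratin, at 165 and 62.0 CPM. These 7 of the 15 thus encode parts of tight junctions, adherens junctions and desmosomes, a keratin and an adhesion molecule.

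The other 8 of the 15 encode proteins of other kinds. Spint1, an inhibitor of membrane-bound serine proteases, was at 143 CPM in the members and 35.6 CPM in the other d8 cells, and Pdgfb, a growth factor that signals to mesenchymal cells, at 70.6 and 16.3 CPM. Kcnk1, a potassium channel, was at 55.4 and 13.7 CPM, and Car2 (carbonic anhydrase 2) at 303 and 113 CPM. Fabp3, a fatty acid binding protein, had a ratio of 1.56, Wfdc2, a secreted protein of the protease inhibitor type, 1.49, and Dusp9, a phosphatase of MAP kinases, 1.42. Igsf9, an adhesion protein of the immunoglobulin family, was at 55.1 and 18.9 CPM. Most of these transcripts were sparse in single cells. After thinning to 5000 reads, 48.9% of the members had a read of Epcam, 45.5% of Cdh1 and 25.3% of Cldn4. The corresponding shares were 5.69%, 8.54% and 1.42% in the 281 thinned cells with the highest fibroblast score and 10.7%, 6.23% and 1.73% in the 289 thinned cells with the highest macrophage score. Epcam and Cdh1 were seen together in 27.6% of the thinned members.

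The genome positions of the principal genes are given on GRCm38 as annotated by GENCODE M21. Krt8 lies at chr15:101996698-102004482 on the minus strand and Krt18 nearby at chr15:102028180-102032027 on the plus strand. Cdh1 lies at chr8:106603351-106670246, plus strand, Cldn4 at chr5:134945119-134946934, minus strand, Epcam at chr17:87635979-87651129, plus strand, and Sfn at chr4:133600556-133602168, minus strand. RefSeq promoter windows of GRCm38.p6 were found for 16 of the 23 score genes and highest genes, those of Cdh1 and Krt19 not among them. The E-box CACCTG, the word that Snail and Zeb factors recognize, was searched on either strand in the 250 bases before the RefSeq start. It was present in 9 of the 16 (Krt8, Krt18, Sfn, Cldn4, Cldn6, Card10, Epcam, Kcnk1 and Wfdc2), or 56.2%, against 17.2% of all 32851 windows. For Krt8, Cldn6 and Wfdc2, the 150 bases before the RefSeq start overlapped the gene as annotated by GENCODE. The GC box GGGCGG was present in 10 of the 16, or 62.5%, against 32.7% of all windows. The other words searched on both strands were the CCAAT box, in 5 of the 16 and 33.8% of all, the grainyhead word AACCNGTT, in Cgn and Sfn and 1.79% of all, the AP-1 word TGANTCA, in Cldn4 and 6.75% of all, and the TATA word TATAAA, in 0 of the 16 and 12.4% of all. These are matches of letters and were not tested.

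The 150 bases before the start are shown for the 4 genes in which CACCTG lay within them and outside the annotated gene. Capitals mark CACCTG or its reverse complement CAGGTG, and each sequence runs 5′ to 3′ on the gene's strand. The windows are chr4:133602169-133602318 (minus) for Sfn, chr5:134946935-134947084 (minus) for Cldn4, chr17:87635829-87635978 (plus) for Epcam and chr15:78803043-78803192 (minus) for Card10.
Sfn: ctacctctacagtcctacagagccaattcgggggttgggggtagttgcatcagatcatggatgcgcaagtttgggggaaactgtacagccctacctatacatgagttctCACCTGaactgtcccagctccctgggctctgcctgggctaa
Cldn4: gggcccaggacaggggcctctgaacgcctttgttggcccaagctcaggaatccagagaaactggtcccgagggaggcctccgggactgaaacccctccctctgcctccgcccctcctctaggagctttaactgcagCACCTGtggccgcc
Epcam: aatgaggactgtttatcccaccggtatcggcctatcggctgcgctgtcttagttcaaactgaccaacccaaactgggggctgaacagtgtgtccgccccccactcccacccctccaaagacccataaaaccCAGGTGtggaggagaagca
Card10: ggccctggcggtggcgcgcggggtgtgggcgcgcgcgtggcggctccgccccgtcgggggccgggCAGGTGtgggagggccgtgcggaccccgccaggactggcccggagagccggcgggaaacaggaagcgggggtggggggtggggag

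The 15 lowest genes were of a different kind. Lyz2 and Lyz1 (lysozymes), Ccl6 (a chemokine), Gpnmb, Mpeg1 (perforin-2), Ms4a6d, Clec4n and Ctss (cathepsin S) are genes of macrophages, and Lox (lysyl oxidase), Bgn (biglycan), Tfpi2, Prl2c2, Prl2c3, Olr1 and Crabp1 were highest, among the 3 sets of reference cells, in the fibroblast set. These sets are the 300 d8 cells outside the members that scored highest for a list of fibroblast, smooth muscle or macrophage genes. Lox is on the fibroblast list and Lyz2 on the macrophage list, so their high levels in those sets follow from the choice of cells. Lyz2 was at 269 CPM in the members and 3203 CPM in the other d8 cells, and Lox at 59.8 and 488 CPM. Lyz2 was at 388 CPM in the fibroblast and 38897 CPM in the macrophage reference cells, and after thinning a read of it was seen in 55.5% of the members, 48.8% of the fibroblast reference, 52.1% of the smooth muscle reference and 100% of the macrophage reference. The share in the members was slightly above those in the fibroblast and smooth muscle reference. Whether the members' Lyz2 reads are background or expression was not tested. When the clusters that held most of the macrophage and fibroblast reference cells were removed from the comparison, a choice made after seeing the data, 62 genes in place of 371 were at least 2-fold lower in the members and 44 in place of 94 at least 2-fold higher. The ratio of Lyz2 was then 0.47 and that of Lox -0.04, while that of Cldn4 was 1.90 and that of Cdh1 1.59. The number of lower genes thus rested on those clusters, whereas Cldn4 and Cdh1 were past 2-fold in both comparisons. Lyz1 and Lyz2, and Prl2c2 and Prl2c3, are near-identical pairs whose reads could have been split between copies.

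Desmosome genes were higher in the members. Of 12 genes, 7 reached the level floor of 20 CPM, 6 of the 7 were at least 2-fold higher in the members and 0 lower, and their median ratio was 1.40. Besides Dsg2 and Dsp these were Dsc2, a second desmosomal cadherin (41.0 and 13.96 CPM), the plaque genes Pkp2 (79.7 and 39.0 CPM) and Ppl (22.8 and 7.21 CPM), and Perp, a membrane protein of desmosomes (430 and 190 CPM). The remaining gene, Jup (plakoglobin), was at 86.0 and 44.4 CPM, a ratio of 0.94. The isoforms of stratified epithelia, Dsg3, Dsc3 and Pkp1, were under 1 CPM in both groups.

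Tight junction and polarity genes came next. Of 25 genes 13 reached the floor, of which 5 were at least 2-fold higher (Cldn7, Cldn4, Cgn, Llgl2 and F11r) and 0 at least 2-fold lower, with a median of 0.89. Cldn7 was at 33.6 and 5.57 CPM, the polarity gene Llgl2 at 32.4 and 9.78 CPM, and F11r (junctional adhesion molecule A) at 148 and 66.8 CPM. Genes of this list that most cells express moved little: Tjp1 (ZO-1) was at 99.7 and 68.6 CPM and Pard3 at 57.2 and 65.0 CPM. Crb3 and Ocln, 2 apical membrane genes, were under the floor at 13.2 and 15.6 CPM in the members and 2.49 and 5.42 CPM in the other cells.

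Of 10 adherens junction genes 9 reached the floor, 3 of them at least 2-fold higher (Cdh1, Epcam and Nectin2) and 0 at least 2-fold lower, with a median of 0.62. Nectin2, an adhesion receptor, was at 111 and 49.6 CPM. The catenins, which link cadherins to actin, were within 2-fold, with Ctnna1 at 424 and 254 CPM, Ctnnd1 (p120-catenin) at 93.5 and 63.1 CPM and Ctnnb1 (beta-catenin) at 439 and 496 CPM. The membrane proteins Nectin4 and Cdh3 were also within 2-fold, Nectin4 at 39.96 and 25.6 CPM. Cdh3 (P-cadherin) was at 24.9 and 21.3 CPM, so that of the 2 classical cadherins of epithelia on the list only Cdh1 was at least 2-fold higher.

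Keratins other than Krt8 and Krt18 were few. Of 14 genes only Krt7 and Krt19 reached the floor, and Krt19 alone was at least 2-fold higher. Krt5 and Krt14, the basal pair of stratified epithelia, were at 5.49 and 1.36 CPM in the members, and Krt1 and Krt10, the pair of differentiated epidermis, at 0.826 and 5.75 CPM. Krt17 was at 16.4 CPM in the members and 3.27 CPM in the other d8 cells, under the floor in both.

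Basement membrane and hemidesmosome genes went in both directions. Of 18 genes 13 reached the floor, 2 were at least 2-fold higher and 1 lower, with a median of 0.15. The higher genes were the laminin receptors Itga3 (43.4 and 16.3 CPM) and Itgb4 (21.3 and 9.56 CPM), and the lower one was Nid1 (nidogen 1), at 70.1 and 241 CPM. The collagen IV chains Col4a1, at 140 and 165 CPM, and Col4a2, at 78.9 and 107 CPM, were within 2-fold.

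Among membrane serine proteases, their inhibitors and their receptors, 4 of 13 genes reached the floor, of which 3 were at least 2-fold higher and 1 lower. St14 (matriptase), a protease of epithelial surfaces, was at 51.3 and 20.7 CPM, and its inhibitors Spint1 and Spint2 at 143 and 35.6 CPM and at 169 and 65.3 CPM. Prss8 (prostasin), which acts with matriptase, was under the floor at 15.7 and 3.96 CPM. F2rl1, which such proteases can cleave, was one of the score genes, and F2r, the thrombin receptor PAR1, was the lower gene, at 97.4 CPM in the members and 221 CPM in the other d8 cells. F2r was at 635 CPM in the fibroblast reference cells.

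**Figure D3:**
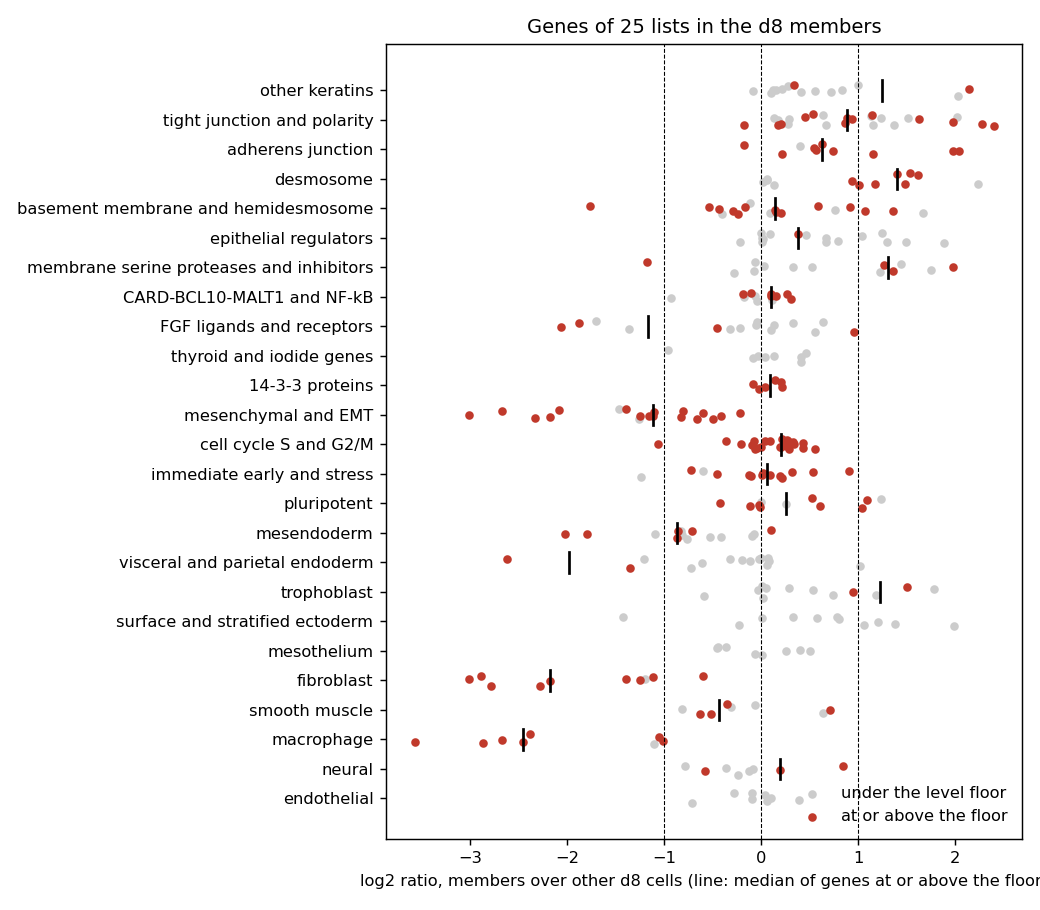
Log2 ratio (members over other d8 cells) of the genes of 25 lists, 1 point per gene, red for genes at or above 20 CPM in either group and grey for genes under it; black lines are medians of the red points and dashed lines mark 0 and 2-fold. Desmosome (median 1.40), tight junction (0.89) and adherens junction genes (0.62) lie to the right, mesenchymal (-1.11), fibroblast (-2.17) and macrophage genes (-2.46) to the left.

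Transcription and splicing regulators of epithelia were expressed at low levels. Of 16 genes only Klf5 reached the floor, at 65.9 and 50.3 CPM. Esrp1 and Esrp2, which direct epithelial splicing, were at 8.995 and 15.2 CPM in the members and 2.54 and 3.38 CPM in the other cells, and the grainyhead factors Grhl2 and Grhl3 at 12.9 and 14.8 CPM against 7.72 and 5.42 CPM. Trp63 (p63) of stratified epithelium was under 1 CPM in both groups.

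Known partners of the other score genes were within 2-fold or near 0, apart from FGF ligands. Of 8 thyroid and iodide genes other than Slc5a5 that the table held, 0 reached the floor. Of 7 genes at the floor among 12 that act with Card10 in NF-kB signalling, 0 were past 2-fold, with Bcl10 at 33.4 and 38.0 CPM and Malt1 at 20.1 and 18.6 CPM. The 6 other 14-3-3 genes of the table lay between ratios of -0.08 and 0.21. Of the FGF genes, the ligands Fgf2 (8.55 and 34.2 CPM) and Fgf7 (5.90 and 27.8 CPM) were at least 2-fold lower in the members, with 81.2 and 109 CPM in the fibroblast reference cells, and Fgf5, a ligand of the epiblast, was at 122 and 62.5 CPM.

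Mesenchymal genes were lower in the members, though reads of them were still seen. Lox was at 59.8 CPM in the members and 105 CPM in the macrophage reference cells, and Col3a1 at 99.4 and 107 CPM. Col1a1 was at 128 and 95 CPM, and Fn1 at 767 and 271 CPM. How much of the lower levels is background was not tested. Of 19 genes 17 reached the floor, 10 were at least 2-fold lower, 0 at least 2-fold higher, and the median was -1.11. Prrx1, a factor of limb and fibroblast mesenchyme, was at 37.0 and 240 CPM, Twist2 at 7.67 and 42.7 CPM and Zeb2, a repressor of Cdh1, at 39.6 and 86.1 CPM. With the macrophage and fibroblast clusters removed from the other cells the median was -0.32. Cdh2 (N-cadherin), at 52.1 and 93.4 CPM, and Fn1 (fibronectin), at 767 and 1339 CPM, were less than 2-fold lower in the full comparison.

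Most pluripotency genes were within 2-fold. Of 11 genes 8 reached the floor and 2 were at least 2-fold higher, Pou5f1 (Oct4) at 100 and 46.7 CPM and L1td1 at 45.1 and 21.4 CPM. Nanog was at 46.6 and 47.4 CPM, Zfp42 (Rex1) at 24.0 and 24.1 CPM, and Sox2 at 92.3 and 124 CPM. For scale, Pou5f1 was at 203 CPM in primed and 317 CPM in naive cells, and Nanog at 94.5 and 429 CPM. The primed values cover the whole tag, whose Oct4-negative cells the study considered feeder fibroblasts. The members as a set had about the Nanog level of the rest of the d8 culture. Their Pou5f1 level lay between those of the other d8 cells and the whole primed tag. By the clusters described below, Pou5f1 was at 129 CPM in members of cluster 8. It was at 74.3, 58.9 and 44.8 CPM in members of clusters 4, 3 and 6.

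Markers of other lineages differed from list to list. Of 14 mesendoderm genes 6 reached the floor and 2, T (brachyury) at 20.5 and 86.3 CPM and Cxcr4 at 9.17 and 34.4 CPM, were at least 2-fold lower. Of 12 trophoblast genes Peg10 (348 and 180 CPM) and Wnt7b (22.3 and 7.23 CPM) reached the floor, of which Wnt7b was at least 2-fold higher, while Cdx2 and Tpbpa were under 1 CPM in both groups. Of 14 visceral and parietal endoderm genes Dab2 and Thbd reached it, both at least 2-fold lower, and Afp was at 0.383 CPM in the members. No gene of the surface ectoderm, mesothelium and endothelial lists reached the floor. The smooth muscle list had 4 genes at the floor and 0 past 2-fold, the neural list 3 and 0, with Nes (nestin) at 241 and 134 CPM, the fibroblast list 9 and 8 lower, and the macrophage list 7 and 7 lower, with Ptprc (CD45) still at 16.4 CPM in the members.

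Proliferation and stress genes were similar in the members and the rest. Of 23 cell cycle genes all 23 reached the floor and 1 was past 2-fold, the inhibitor Cdkn2a at 40.1 and 84.6 CPM, which stood at 172 CPM in the fibroblast reference cells. Mki67 was at 43.1 and 45.1 CPM. Of 14 immediate early and stress genes 12 reached the floor and 0 were past 2-fold, with Atf3, at 196 and 104 CPM, the highest ratio at 0.91.

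Some genes outside the score followed the rank of the members, and others did not. Across the first, second and last 500 members by score, Cdh1 stood at 246, 140 and 119 CPM, Epcam at 242, 165 and 145 CPM, and Cldn4 at 90.3, 60.1 and 49.3 CPM. The next 1500 d8 cells had 85.2 CPM of Cdh1, 105 CPM of Epcam and 30.4 CPM of Cldn4, and the remaining 6627 cells 30.2, 32.4 and 9.05 CPM. Vim ran the other way, at 2705, 4028 and 4411 CPM in the 3 blocks of members, 4685 CPM in the next 1500 cells and 4954 CPM in the rest. Lyz2 followed no such order within the members, at 223, 314 and 274 CPM. Krt7 changed little across the 3 blocks, at 24.2, 23.2 and 23.0 CPM. Lefty1 rose towards the limit, at 264, 351 and 413 CPM. The change in Cdh1, Epcam, Cldn4 and Vim was therefore gradual on both sides of the limit. Median reads per cell were 21815, 18972 and 18180 in the 3 blocks and 16029 in the next 1500 cells, so depth moved with the rank, and its part in these values was not tested.

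The members were not a single group of cells. When the d8 cells were clustered without the 8 score genes, 11 clusters were found, and 737 of the members (49.1%) lay in cluster 8, 293 (19.5%) in cluster 4, 253 (16.9%) in cluster 3, 67 (4.47%) in cluster 6, 55 (3.67%) in cluster 9 and the other 95 in 6 further clusters. In cluster 4 members were the majority, at 293 of 369 cells (79.4%, interval 74.9 to 83.4), and in cluster 8 they were 737 of 1708 (43.1%, interval 40.8 to 45.5). In clusters 2, 5 and 1, led by Lox and Bgn, by Lyz2, and by T and Shh, they were 0.558%, 1.21% and 1.22%. These clusters were made from the same cells, so the genes below describe them and are not tested against each other.

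**Figure D4:**
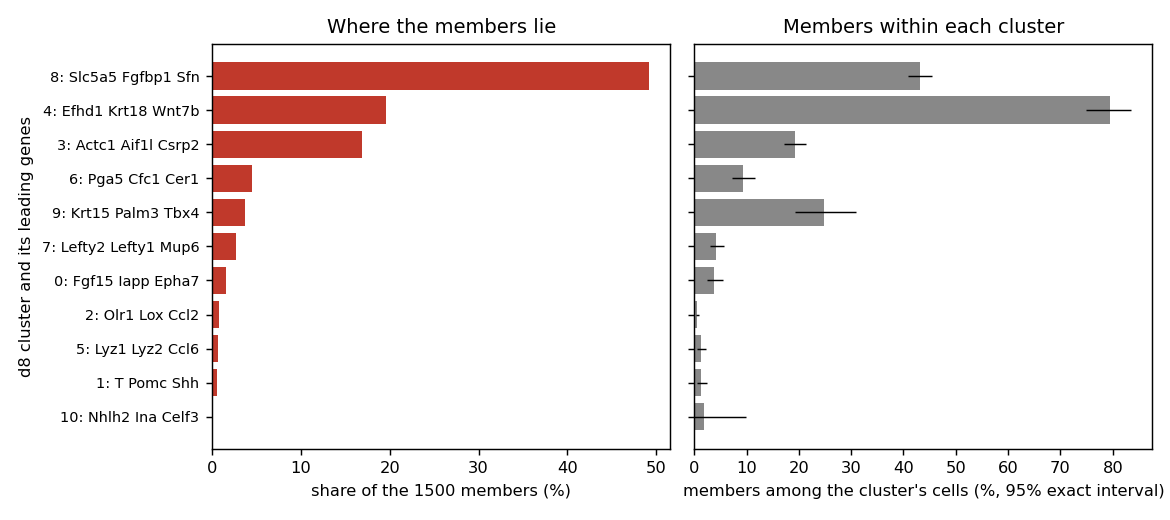
For each d8 cluster, named by its number and 3 leading genes, the left bar is its share of the 1500 members (%) and the right bar the share of its cells that are members (%, 95% exact binomial interval). Cluster 8 holds 49.1% of the members and cluster 4 is 79.4% members.

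Members of cluster 4 had the highest Krt8 and Krt18 levels of the 4 largest member groups. Their Krt8 level was 6628 CPM and their Krt18 level 7675 CPM, with Cdh1 at 325 CPM, Epcam at 296 CPM, Cldn4 at 131 CPM and Dsg2 at 226 CPM. Against the other members they were highest for Ndrg4 (106 and 21.8 CPM), Efhd1 (71.1 and 16.2 CPM), Wnt7b, a Wnt ligand of epithelia (58.1 and 13.7 CPM), and Ndrg1 (169 and 44.2 CPM), and also for Ppl (50.2 and 16.2 CPM) and Sbsn (suprabasin, 77.6 and 23.6 CPM). They were low in the epiblast genes Lefty1 (70.2 and 404 CPM), Fgf5 (53.0 and 139 CPM) and Pou3f1 (21.8 and 62.8 CPM). Krt17 reached 33.9 CPM in them. The cells of cluster 4 outside the members had Ndrg4 at 128 CPM, Ndrg1 at 177 CPM and Sbsn at 137 CPM, above its members. They had Efhd1 at 32.0 CPM, Wnt7b at 49.5 CPM and Ppl at 36.6 CPM, below its members. Lefty1, Fgf5 and Pou3f1 were also low in these other cells, at 76.9, 74.6 and 14.5 CPM. Their Dsg2 level, 235 CPM, was above that of the members. Cdh1, Epcam and Cldn4, at 183, 241 and 86.1 CPM, were below.

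Members of cluster 8 joined the keratins with epiblast genes. Their Krt8 level was 2960 CPM and their Cdh1 level 150 CPM, and they had the highest levels of Slc5a5 (101 CPM), Fgfbp1 (382 CPM) and Sfn (517 CPM) among the 4 largest member groups. Against the other members they were highest for Pou3f1 (Oct6, 85.1 and 27.3 CPM) and high for Fzd10, a Wnt receptor (58.0 and 23.0 CPM), the TGF-beta family genes Lefty1 (482 and 209 CPM) and Nodal (121 and 53.9 CPM), and the interferon-linked genes Psmb8, Gbp2 and Ifitm1 (398 and 180 CPM). Pou5f1 was at 129 CPM. The cells of cluster 8 outside the members had Lefty1 at 518 CPM, above its members. They had Pou3f1 at 67.2 CPM, Nodal at 77.5 CPM and Pou5f1 at 89.3 CPM, below its members.

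Members of cluster 3 carried the keratins together with contractile genes. Actc1 (cardiac actin) was at 134 CPM against 11.4 CPM in the other members, Acta2 (smooth muscle actin) at 1310 against 188 CPM, Tagln at 804 against 178 CPM and Myl9 at 275 against 66.9 CPM. Krt8 was at 4277 CPM, but Cdh1 was at 65.9 CPM, Epcam at 82.5 CPM and Cldn7 at 7.38 CPM, and Vim at 6204 CPM and Fn1 at 1796 CPM were above their levels in the other d8 cells. The cells of cluster 3 outside the members had Acta2 at 1686 CPM, Tagln at 876 CPM and Myl9 at 356 CPM. They had Vim at 6652 CPM and Fn1 at 2047 CPM. These 5 levels were above those of the cluster's members, while Actc1, at 96.9 CPM, was below. The contractile and mesenchymal levels were thus shared by the cluster. Its 253 members had the lowest Cdh1 and Epcam levels of the 4 groups. Without these members, a choice made after seeing the data, 117 genes were at least 2-fold higher and 411 at least 2-fold lower. Without Krt8 and Krt18 in the score, 1114 of the 1500 members (74.3%) were chosen again.

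Members of cluster 6 had Cdh1 at 450 CPM, Epcam at 296 CPM and Cldn6 at 464 CPM together with the mesendoderm genes Cer1 (136 and 2.62 CPM against the other members) and Lhx1 (390 and 9.12 CPM), and with Pga5 (676 and 3.31 CPM). Their Krt8 level, 2601 CPM, was the lowest of the 4 groups, and Card10 was at 22.4 CPM. Lefty1 was at 691 CPM. The cells of cluster 6 outside the members had Cer1 at 152 CPM and Lhx1 at 385 CPM, near the levels of its members. They had Pga5 at 298 CPM and Lefty1 at 599 CPM, below its members.

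**Figure D5:**
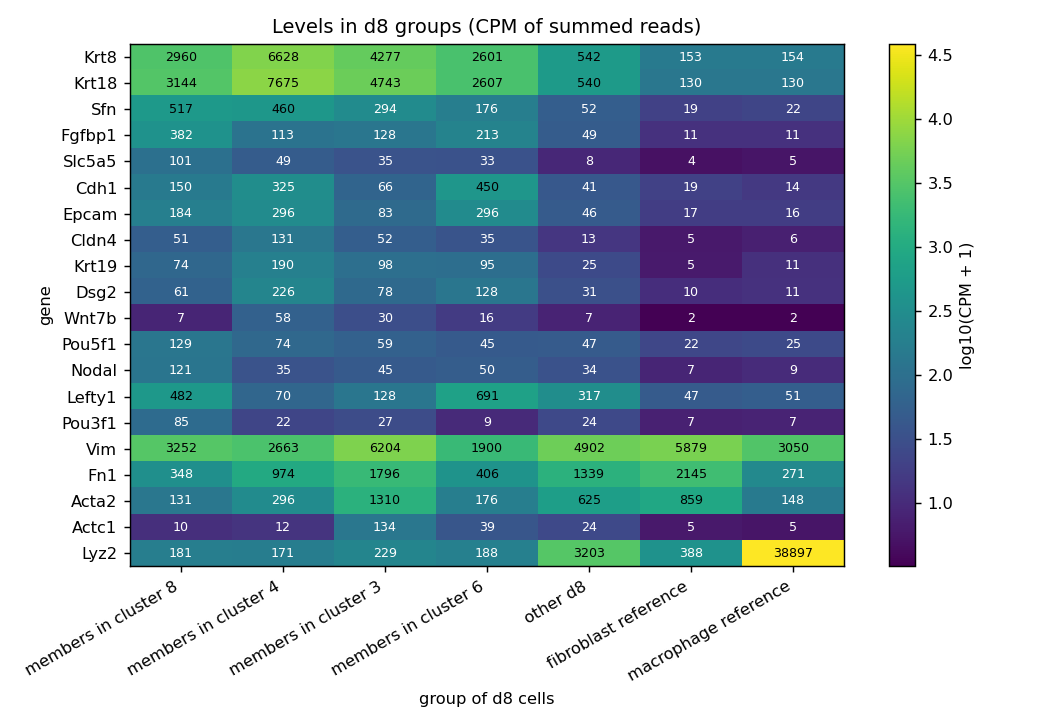
Levels (CPM of summed reads, printed in each cell, coloured by log10 of CPM plus 1) of 20 genes in the members of the 4 clusters that hold most of them, in the other d8 cells and in the fibroblast and macrophage reference cells. Cdh1 runs from 65.9 CPM in members of cluster 3 to 450 CPM in those of cluster 6, and Acta2 from 131 CPM in cluster 8 to 1310 CPM in cluster 3.

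Members were also set beside the other cells of their own cluster, a comparison in which the score genes had to be higher by the rule. In cluster 8 the median ratio of members over the cluster's other cells was 1.48 for the 8 score genes and 0.87 for the 15 highest genes, of which 5 were past 2-fold. In cluster 4 it was 1.80 and 0.36, with 2 of the 15 past 2-fold, in cluster 3 1.73 and 1.07, with 8, and in cluster 6 1.71 and 1.02, with 8. The desmosome list, at 1.40 over all d8 cells, had medians of 0.33, 0.06, 0.60 and 0.89 in the 4 clusters. For the 15 lowest genes, 0 of 15 were past 2-fold in any of the 4 clusters, and their medians lay between -0.24 and 0.04. The share of all genes past 2-fold within each cluster is not given, so these counts have no background beside them. Members were deeper than the other cells of cluster 8, at 18698 against 11353 median reads, and the part of depth in these ratios was not tested.

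Cells that reached the lowest member score were found under every tag. They were 105 of 1826 primed cells (5.75%, interval 4.73 to 6.92), 21 of 801 naive cells (2.62%, 1.63 to 3.98), 59 of 4315 d16 cells (1.37%, 1.04 to 1.76) and 22 of 1151 d16+10p cells (1.91%, 1.20 to 2.88), 207 in all. At d8 the share, 15.6%, is set by the rule. Of the 15 highest genes of the d8 members, 15 were higher in the high-scoring primed cells than in the rest of that tag and 13 at least 2-fold, and the same counts were 15 and 13 at d16, 14 and 11 in naive and 13 and 10 in d16+10p cells. Of the 15 lowest genes, 13 were at least 2-fold lower in the high-scoring primed cells, 8 in naive, 7 at d16 and 4 in d16+10p cells. The same score chose the high-scoring cells of each tag. The share of all genes past 2-fold in these comparisons is not given, so the counts have no background beside them. The high-scoring d16 cells held a median of 26807 reads against 10113.5 in the rest of that tag, and the part of depth was not tested. Krt19 was at 118 CPM in the high-scoring primed cells, 278 CPM at d16, 115 CPM in naive and 139 CPM in d16+10p cells, against 114 CPM in the d8 members.

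Pou5f1, higher in the d8 members than in the other d8 cells, was lower in the high-scoring cells of all 4 other tags than in the rest of the tag. It was at 152 against 322 CPM in naive, 123 against 210 CPM in primed, 98.5 against 155 CPM in d16 and 237 against 343 CPM in d16+10p cells. Nanog was at 133 against 439 CPM and Cdh1 at 197 against 198 CPM in the naive tag. The primed tag held 1826 barcodes although 500 cells were loaded, the naive tag 801 against 500, the d8 tag 9627 against 9000, the d16+10p tag 1151 against 1000, and the d16 tag 4315 against 9000. Whether the 207 cells were correctly assigned to their tags was not tested.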

How the data were processed

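The data are single-cell RNA-seq of 5 tagged mouse populations pooled in 1 cDNA library (BD Rhapsody, TAS-Seq). The deposited values are raw read counts per gene symbol and cell. Per the labels and the study's methods, the authors trimmed reads with cutadapt 2.10, mapped them with Bowtie2 2.3.4.1 to Ensembl cDNA and ncRNA of GRCm38.p6, counted reads without a described collapse by molecular identifier, and removed cells with ambiguous tags as doublets. Counting by symbol can split reads between near-identical genes, and it was not stated to use strand.

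Cells were taken from the tag in their column name. Members and gene lists were chosen with earlier results of these data known. Reads were summed over cells, scaled to CPM, and compared as log2(CPM + 1). With 1 culture per population no test was made. Genes were named when they were among the 15 largest ratios in a direction at 50 CPM or more and 100 reads or more, when they chose the members, or when they were in a fixed list. Genes of member subgroups (such as Ndrg4, Efhd1 and Fzd10) were named after their values were seen. Counting intervals are exact binomial at 95%. Reference cells were the 300 d8 cells outside the members with the highest score for a fibroblast, smooth muscle or macrophage list. Clusters were made with scanpy 1.11.5 from 2000 variable genes, 56 components, 50 neighbours and a resolution of 0.8. Scrublet called 1 d8 cell, which is too few for the caller to have worked, so the 5% of d8 cells with its highest scores were left out as an alternative. TMM factors came from edgeR 4.0.16. The ratio script was tested on simulated data. The second library, of tags, was not used beyond the tag names.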

Additional observations from a re-analysis of the deposited data

How the results depend on the processing

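Of the 6 list medians, 0 changed sign under any alternative, and the named higher genes and score genes were higher under all of them. Of these 23 genes 20 stayed past 2-fold throughout, and the lowest ratios of the others were 0.95 for Igsf9, 0.90 for Car2 and 0.81 for Dsp. The 8 genes whose ratio changed sign did so in 1 comparison, chosen after seeing the data, in which the clusters of the macrophage and fibroblast reference cells were left out of the other d8 cells. Their ratios there were 0.35 (Lyz1), 0.47 (Lyz2), 0.12 (Ccl6), 0.23 (Gpnmb), 0.070 (Crabp1), 0.035 (Mpeg1), 0.29 (Clec4n) and 0.30 (Ctss). In it, 44 genes were past 2-fold higher and 62 lower, and the list medians were 0.72 for other keratins, 0.44 for tight junction, 0.30 for adherens junction, 0.81 for desmosome and -0.32 for mesenchymal genes. Leaving the 1500 cells just below the members out of the comparison gave 160 higher genes and medians of 1.64, 1.07, 0.86, 1.77 and -1.27 for the same lists. A pseudocount of 10 CPM gave 50 higher genes and medians of 1.03, 0.76, 0.50, 1.09 and -0.80. A floor of 50 CPM gave 48 higher and 193 lower genes, and no floor 243 and 865, by their own construction of fewer or more genes. Scoring without Krt8 and Krt18 gave medians of 0.95 for other keratins, 1.05 for desmosome and 0.29 for the 1 regulator at the floor. With 2000 members the medians were 1.35 for other keratins and 0.72 for adherens junction, with 1000 members 1.34 for desmosome, and with cells thinned to 5000 reads 1.34 for desmosome. Without the members of the cluster with the highest Actc1 level, also chosen after seeing the data, they were 0.97 for tight junction, 1.45 for desmosome and -1.28 for mesenchymal genes. The share of members in their main cluster was 74.6% at a resolution of 0.4 and 69.2% with the score genes in the clustering, against 49.1%. TMM scaling shifted all ratios by -0.03. The cause of the other shifts was not tested. Other keratins and regulators rest on 2 genes and 1 gene. With no replicate culture, no alternative could leave one out, and the difference between cultures is not covered by any interval here.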

Other observations

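Several genes outside the lists and the naming rule were read after their values were seen. Bex1 was at 922 CPM in the members and 372 CPM in the other d8 cells, and Hspb1 (small heat shock protein 27) at 583 and 238 CPM. Cd9 and Cd63, which encode the tetraspanins that carried the tags, were at 193 and 214 CPM and at 1256 and 1569 CPM, within 2-fold in both cases. Within the members, Cd9 was at 344 CPM in those of cluster 4 and 141 CPM in those of cluster 8.

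Of the 1500 members, 51 (3.40%) were among the 481 d8 cells with the highest Scrublet scores, against 430 of the other d8 cells (5.29%).

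Cluster 9 of the d8 cells, led by Krt15, Palm3 and Tbx4, held 222 cells, of which 55 (24.8%, interval 19.2 to 31.0) were members. Krt15 was at 6.90 CPM in the members as a whole and 5.53 CPM in the other d8 cells.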
